A study of Mus musculus with 2 samples.

Results

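The levels of 10 genes of peroxide defence were read in the islet cells of 1 Tg7 and 1 Wild-type library: the peroxiredoxins Prdx1, Prdx2, Prdx3, Prdx4, Prdx5 and Prdx6, the glutathione peroxidases Gpx1, Gpx3 and Gpx4, and Txnip. They were taken by symbol, and all 10 were found among the 31054 features of both libraries. Tg7 mice overexpress the microRNA miR-7a2 in their β-cells and were studied for the loss of β-cell identity, and Wild-type mice were their littermates. The paper describes 12-week-old Tg7 mice as hyperglycaemic. Both libraries came from 12-week-old C57Bl6 males, and per the study's methods both genotypes also carried a rat Ins2-Cre transgene and a floxed-stop tdTomato reporter in the Rosa26 locus. Droplets were used to capture single cells, and each captured transcript was counted by its unique molecular identifier (UMI). Each group is 1 library, and neither the number of mice behind it nor the promoter of the miR-7a2 transgene is known from the labels, so that no test between the genotypes was possible, no difference has a replicate check, and genotype and library cannot be told apart. Values in brackets are 95% intervals of the counting error only.

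Peroxiredoxins remove hydrogen peroxide with a reactive cysteine that most of them later recover from thioredoxin. Glutathione peroxidases use glutathione, and those encoded by Gpx1, Gpx3 and Gpx4 carry selenocysteine in the active site. Txnip encodes an α-arrestin that binds thioredoxin, and its transcription follows glucose through the factors Mlxipl (ChREBP) and Mlxip and their partner Mlx. β-cells are known for low levels of catalase and glutathione peroxidase and for a strong glucose response of Txnip. The enzymes also differ in place: Prdx1, Prdx2 and Prdx6 act mainly in the cytosol, Prdx3 in mitochondria, Prdx4 in the endoplasmic reticulum (ER), Prdx5 in several compartments, and Gpx3 is secreted.

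Because Tg7 is a miR-7 line, the sequence of the microRNA and the few matches to its seed are shown first. The mature form (from RefSeq, GRCm38.p6, chr7:78888295-78888317, plus strand) has its seed, bases 2 to 8, in capitals. The 7-base match GTCTTCC was not found in the longest annotated 3′ UTR of any of the 10 genes (GENCODE vM1, an older build than that of the counts), whereas 11.2% of 19915 genes hold it. The shorter match TCTTCC, held by 39.9% of all genes, was found in the 3′ UTRs of Prdx1, Gpx1 and Gpx3, at base 133, 52 and 409 of the UTR, and is in capitals in the windows below.
mmu-miR-7a-5p: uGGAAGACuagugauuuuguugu
Prdx1: atggatagccttTCTTCCactattggtaat
Gpx1: ctggggggcggtTCTTCCatgatggtgttt
Gpx3: caccagcctcctTCTTCCttcctgaaggac
The first and the second of these sites are followed by an A, a form found in 15.5% of all genes. A match of letters is a description and not a site shown to be used.

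After the barcode filters the Tg7 library held 992 cells with a median of 24246.5 UMIs and the Wild-type library 749 cells with 39579. The libraries shared 0 barcodes. A cell was classed by its hormones: it counted as positive at 5% of its UMIs for insulin (Ins1 plus Ins2), Gcg (glucagon), Sst (somatostatin) or Ppy (pancreatic polypeptide). In Tg7 and Wild-type this gave 596 and 493 insulin cells, 173 and 144 Gcg cells, 17 and 26 Sst cells and 19 and 10 Ppy cells, and 127 and 31 cells with several hormones, while 60 and 45 cells had none. The cut is a point on a range. For insulin, 45 Tg7 and 4 Wild-type cells lay between 2.5% and 10%, and for Gcg 85 and 10. Since hormone transcripts made up 43.1% of all UMIs in Tg7 and 63.3% in Wild-type, levels are given as CPM taken over non-hormone UMIs, leaving out the 7 genes Ins1, Ins2, Iapp, Gcg, Sst, Ppy and Pyy. In insulin cells all 8 β-cell markers outside the hormones were detected in both libraries, with a summed level of 1008 CPM in Tg7 and 7689 in Wild-type. α-cell markers stood at 6434 and 3463 there, γ-cell markers at 176 and 39.3, δ-cell markers at 569 and 581, duct markers at 662 and 266, macrophage markers at 52.2 and 107, and Gcg itself took 0.339% and 0.0141% of the UMIs of insulin cells. The part of these markers in the results was not tested.

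In insulin cells the genes moved apart, as the plot of ratios shows. Gpx3, Prdx4, Txnip and Prdx5 were at least 1.5-fold higher in the Tg7 library and Prdx3 was at least 1.5-fold lower, while Prdx1, Prdx2, Prdx6, Gpx1 and Gpx4 lay between these limits. The call thus took 4 of the 10 genes as higher, where it took 14.1% of 11448 genes with at least 50 UMIs, and 1 of the 10 as lower, where it took 13.1%. At 2-fold, 2 of the 10 were higher and 1 lower, against 7.45% and 5.27% of all genes. The median log2 ratio was 0.07 over the 10 genes and -0.04 over all genes. The counts rest on the scaling by non-hormone UMIs. Scaled to all UMIs, every insulin-cell ratio was 0.80 higher on the log2 scale, 66.0% of all genes were called higher and 2.58% lower, and the ratios of Prdx2, Prdx6, Gpx1 and Gpx4 crossed to above 1.

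**Figure D1:**
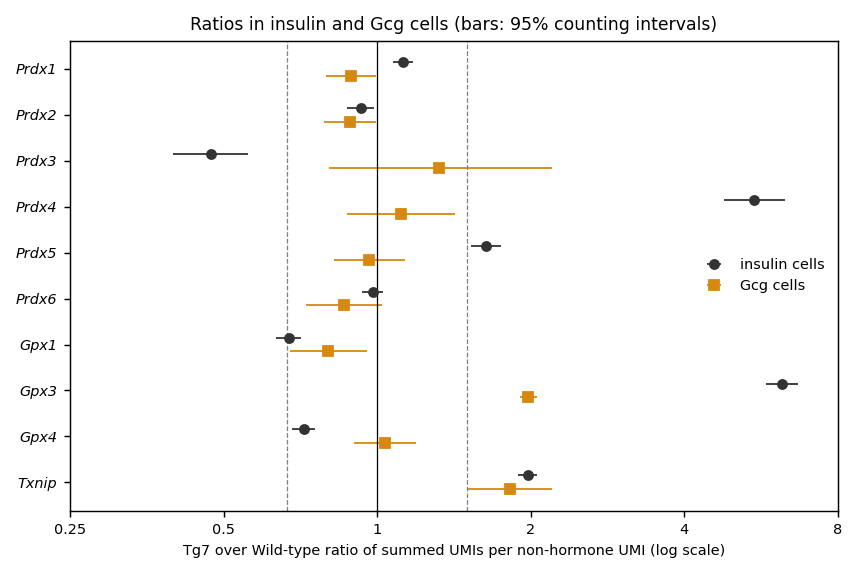
Tg7 over Wild-type ratio of each gene (x axis, log scale, summed UMIs per non-hormone UMI) in insulin cells (black circles) and Gcg cells (orange squares), with 95% counting intervals and dashed lines at 1.5-fold. Gpx3 (6.23) and Prdx4 (5.48) stand to the right in insulin cells and Prdx3 (0.472) to the left, and in Gcg cells Gpx3 (1.98) and Txnip (1.82) lie past the line.

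Per non-hormone UMI, the peroxiredoxins of the cytosol were at similar levels in both libraries. Prdx1, a main thioredoxin-dependent peroxidase, stood at 458 CPM in Tg7 insulin cells and at 408 in Wild-type, a ratio of 1.12 (1.08 to 1.17). Prdx2, its close relative, stood at 204 and 220, a ratio of 0.929 (0.874 to 0.987). Prdx6, which uses glutathione in place of thioredoxin, stood at 341 and 348, a ratio of 0.980 (0.934 to 1.03). None of these came near 1.5-fold with this scaling, and for Prdx6 the interval held 1. These intervals are narrow because each gene had at least 1868 UMIs in either library, and they leave out any spread between mice.

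The mitochondrial Prdx3 (chr19:60864066-60874538, GRCm38) went the other way. It was at 19.5 CPM in Tg7 insulin cells (229 UMIs) and at 41.4 in Wild-type (352 UMIs), 2.12-fold lower in Tg7 (1.79 to 2.51). At 1 depth of 2000 non-hormone UMIs per cell, a Prdx3 UMI was held by 3.95% (2.52 to 5.86) of the Tg7 insulin cells and 7.16% (5.04 to 9.81) of the Wild-type ones, and these intervals overlap. Without thinning the shares were 30.2% and 47.9%. Prdx5 (chr19:6906697-6910106), found in mitochondria, peroxisomes and cytosol, stood at 233 and 143 CPM, a ratio of 1.63 (1.53 to 1.75). It was thus higher in the library in which Prdx3 was lower.

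Prdx4, the peroxiredoxin of the ER, was at 154 CPM in Tg7 insulin cells (1804 UMIs) and at 28.1 in Wild-type (239 UMIs). The ratio was 5.48 (4.78 to 6.29), the 264th highest of 11448 genes. The difference was spread over the cells rather than held by a few. The median Tg7 insulin cell was at 126 CPM and the median Wild-type cell at 0, and 65.4% of Tg7 cells lay above the 90th percentile of Wild-type cells. Thinned to 2000 UMIs, a Prdx4 UMI was held by 26.2% (22.7 to 30.02) of the Tg7 insulin cells and 5.32% (3.502 to 7.69) of the Wild-type ones, against 83.6% and 35.5% without thinning. In immune, vascular and erythroid-like cells at the same depth, which are not shown to lack Prdx4, the share was 11.8% in Tg7 and 8.82% (1.86 to 23.7) in Wild-type, of 34 cells each. The Wild-type share of insulin cells thus could not be told from that of these cells. Duct and acinar markers were among the leading genes of the erythroid-like ones. Prdx4 lies on chrX:155323918-155342272 of GRCm38, and its RefSeq promoter (250 bases before to 50 after the start) holds an E-box, CACGTG, 52 bases before the listed start. The E-box is in capitals in the window chrX:155338495-155338524, minus strand. This window lies within the span of the gene, so the listed start is not the outer end of that span.
Prdx4: ggagcttgcgccCACGTGgcggaggggcgg
Of 32851 promoters, 7.15% hold these letters, which read the same on both strands.

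Among the measured genes for disulphide formation in the ER, Prdx4 had the highest ratio in insulin cells and the ER oxidase Ero1lb, a partner of protein disulphide isomerase in β-cells, the lowest. Ero1lb stood at 201 CPM in Tg7 and at 2356 in Wild-type insulin cells, 11.7-fold lower (11.2 to 12.2). Of the 14 measured genes of this list, which holds Prdx4, 4 were at least 1.5-fold higher and 1 lower, beside 14.1% and 13.1% of all genes. The disulphide isomerase Pdia5 (ratio 1.88), the reductase subunit Vkorc1 (1.84) and the chaperone Erp29 (1.56) were the others on the higher side, while the isomerase Pdia6 (0.848) and the oxidase Ero1l (0.780) stayed within the limits. In Gcg cells Prdx4 had a ratio of 1.11 (0.875 to 1.42) and Ero1lb of 0.936 (0.715 to 1.23). The Prdx4 ratio of insulin cells was 4.92 times that of Gcg cells (3.75 to 6.45).

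Among the selenium-dependent peroxidases, Gpx1 and Gpx4 were lower and Gpx3 was higher in Tg7 insulin cells. Gpx1, the cytosolic form, stood at 213 CPM in Tg7 and at 318 in Wild-type, 1.49-fold lower (1.41 to 1.58). It therefore lay just inside the 1.5-fold limit, and passed it under 3 other settings. Gpx4, which reduces lipid peroxides in membranes, stood at 236 and 329, 1.39-fold lower (1.32 to 1.47). Thinned, a Gpx1 UMI was held by 34.5% (30.6 to 38.5) of the Tg7 insulin cells and 45.4% (40.9 to 49.9) of the Wild-type ones and a Gpx4 UMI by 39.6% (35.6 to 43.7) and 47.0% (42.5 to 51.6). Thinning rests on the same scaling to non-hormone UMIs. Scaled to all UMIs both genes were on the other side of 1, Gpx1 at 1.17 and Gpx4 at 1.25.

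Gpx3 (chr11:54902854-54910387, GRCm38) encodes the secreted glutathione peroxidase of plasma and had the highest ratio of the 10 genes. It was at 612 CPM in Tg7 insulin cells (7177 UMIs) and at 98.3 in Wild-type (836 UMIs), a ratio of 6.23 (5.80 to 6.70), the 229th highest of 11448. The median cell was at 476 in Tg7 and at 0 in Wild-type, and 60.9% of Tg7 cells exceeded the 90th percentile of Wild-type cells. Thinned, a Gpx3 UMI was held by 61.1% (57.0 to 65.04) of the Tg7 insulin cells and 12.3% (9.50 to 15.5) of the Wild-type ones, against 93.0% and 28.8% without thinning. In immune, vascular and erythroid-like cells, which here hold few or no Gpx3 UMIs, the thinned share was 8.82% (1.86 to 23.7) in Tg7 and 0 of 34 cells in Wild-type, which allows up to 8.82%. Median depth there was 4496 and 5816 UMIs, against 29147.5 and 49274 in insulin cells.

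Gpx3 was highest in Gcg cells in both libraries, so its level in insulin cells was also read in those that held little of any other hormone. In insulin cells with Gcg, Sst and Ppy each under 0.1% of UMIs, Gpx3 stood at 524 CPM in 410 Tg7 cells and at 52.8 in 461 Wild-type cells, a ratio of 9.92. In the remaining insulin cells it stood at 736 in 186 Tg7 cells and at 630 (571 to 693) in 32 Wild-type cells. The 32 Wild-type cells thus held 422 of the 836 Gpx3 UMIs of that class. The split, chosen after seeing the data, left out 186 Tg7 but 32 Wild-type cells. Prdx4 (6.36), Txnip (2.12) and Prdx5 (1.78) also kept their side in these cells, with Prdx3 at 0.497.

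Txnip (chr3:96557957-96561857) stood at 673 CPM in Tg7 insulin cells (7890 UMIs) and at 341 in Wild-type (2903 UMIs), a ratio of 1.97 (1.89 to 2.06). The median cell was at 594 in Tg7 and at 255 in Wild-type, and 81.0% of Tg7 cells lay above the Wild-type median. Thinned, a Txnip UMI was held by 64.5% (60.5 to 68.4) of the Tg7 insulin cells and 40.5% (36.1 to 44.99) of the Wild-type ones. In the immune, vascular and erythroid-like cells, some of which express Txnip, the share was 11.8% in Tg7 and 23.5% (10.7 to 41.2) in Wild-type, an interval that reaches the Wild-type insulin cells. The plot of the spread over cells shows this as a shift of the whole range. The related α-arrestin Arrdc4, which is also known to follow glucose, was at 54.6 and 14.6 CPM in insulin cells, a ratio of 3.75 (3.09 to 4.58), and at 47.9 and 43.5 in Gcg cells, a ratio of 1.10 (0.777 to 1.56). Mlxipl itself was at 182 in both libraries, a ratio of 0.9999 (0.936 to 1.07).

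**Figure D2:**
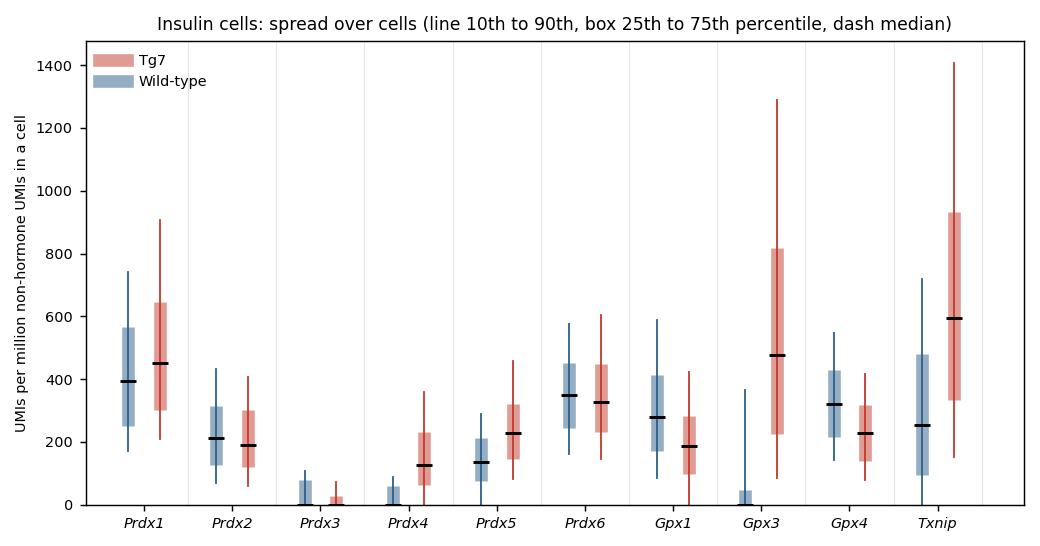
Level of each gene in single insulin cells (y axis, CPM over the non-hormone UMIs of the cell) in 493 Wild-type (blue) and 596 Tg7 (red) cells. Lines run from the 10th to the 90th percentile, boxes from the 25th to the 75th, and black dashes mark medians, which for Gpx3 are 476 in Tg7 and 0 in Wild-type and for Txnip 594 and 255.

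The Txnip promoter holds a pair of E-box-like elements, the arrangement through which glucose is known to act on this gene. Searched on both strands of the RefSeq promoters as the letters CACGNG, any 5 bases and CACGNG again, it was found in 16 of 32851 promoters, which is 0.0487%, and of the 9 genes with a listed promoter only in Txnip. It begins 85 bases before the start, in the window chr3:96557866-96557895 (GRCm38.p6, plus strand), and overlaps no CACGTG. As the pair was already known in Txnip, finding it there was not a test, and its rarity depends on the letters searched. The Arrdc4 promoter holds a single CACGTG 193 bases before the start, in the window chr7:68749414-68749443 (minus strand). The pair and the E-box are in capitals.
Txnip: actgtgCACGAGGGCTGCACGAGcctccag
Arrdc4: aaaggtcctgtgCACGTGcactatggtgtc
The core of the antioxidant response element, TGACNNNGC, which the factor Nfe2l2 (NRF2) is known to bind, was found among the 9 promoters in Prdx1 alone, on the opposite strand, in the window chr4:116685456-116685485 (plus strand). It is in capitals here, and 12.4% of all promoters hold it on either strand. No overlap with the other motifs occurred in this window. The Arrdc4 promoter, which is not among the 9, also holds this core on the opposite strand, 28 bases before the start.
Prdx1: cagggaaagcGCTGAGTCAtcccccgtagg

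The insulin-driven reporter tdTomato had 247 Tg7 and 396 Wild-type UMIs in insulin cells (21.1 and 46.5 CPM) but 1 and 2 in Gcg cells (0.630 and 1.38 CPM). In Gcg cells Ins2 stood at 6921 CPM in Tg7 and 2221 in Wild-type, and Iapp at 16280 and 1705. Ins1 went the other way, at 269 and 705. The part of such RNA in the ratios was not tested beyond the splits given below. In these Gcg cells Gpx3 and Txnip were higher in Tg7. Gpx3 stood at 5777 CPM in Tg7 and at 2918 in Wild-type, a ratio of 1.98 (1.91 to 2.05), the 54th highest of 6647 genes. Txnip stood at 206 and 113, a ratio of 1.82 (1.502 to 2.21), the 97th highest. The other 8 genes had ratios from 0.802 (Gpx1) to 1.32 (Prdx3), so that 2 of 10 were called higher, where 4.56% of all genes were, and 0 of 10 lower, where 9.64% were.

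The Gcg-cell result of Txnip depended on which cells were counted. In Gcg cells with insulin, Sst and Ppy each under 1% of UMIs, its ratio was 1.43, from 167 CPM in 133 Tg7 cells and 117 in 125 Wild-type cells, which is inside the limit. In the remaining Gcg cells it stood at 298 (250 to 351) in 40 Tg7 cells and at 93.4 (59.2 to 140) in 19 Wild-type cells. With a limit of 0.1%, only 8 Wild-type cells were left and the ratio was 1.05, on 14 Wild-type UMIs. Gpx3 had a ratio of 2.05 under the 1% limit and of 1.65 under the 0.1% limit. The part of other cells' RNA in the Txnip value was not tested beyond these splits.

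Between the classes, the ratios differed most for Prdx4 and Gpx3. The ratio of Gpx3 in insulin cells was 3.15 times that in Gcg cells (2.90 to 3.41), that of Prdx5 1.69 times (1.42 to 2.01), and that of Prdx3 0.358 times (0.216 to 0.590). Gpx4 had a quotient of 0.694 (0.5995 to 0.804). For Txnip the quotient was 1.08 (0.895 to 1.31), an interval that holds 1, and for Prdx1 it was 1.26 (1.12 to 1.42). For Prdx4 the order of the classes also differed between the libraries, since insulin cells were below Gcg cells in Wild-type (28.1 against 87.0 CPM) and above them in Tg7 (154 against 97.0).

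**Figure D3:**
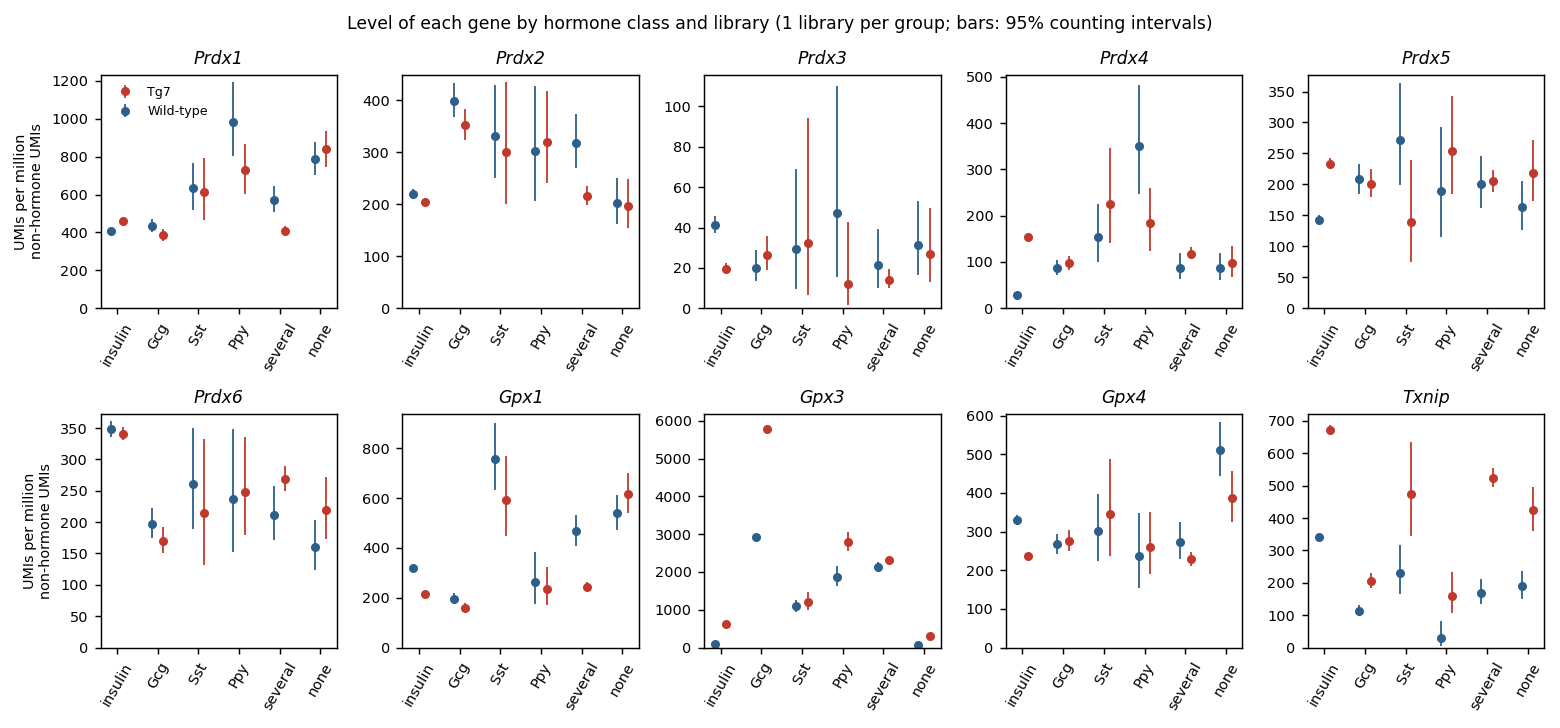
Level of each gene (y axis, CPM over non-hormone UMIs, own scale per gene, from 0) by hormone class (x axis, with "several" for cells with several hormones and "none" for cells without) in the Wild-type (blue) and Tg7 (red) library, with 95% counting intervals. The Txnip level of Tg7 lies above that of Wild-type in each class, on 3 Wild-type UMIs in Ppy cells and, in cells without a hormone, with a Chga-led cluster without which the ratio is 0.927, and Gpx3 reaches 5777 CPM in Tg7 Gcg cells.

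The remaining endocrine classes were small, and only values with at least 50 UMIs over both libraries are given. In Sst cells Txnip was at 474 CPM in Tg7 and at 231 in Wild-type, a ratio of 2.05 (1.30 to 3.24), and Prdx5 at 140 and 272, a ratio of 0.514 (0.255 to 0.968). The other 6 genes with enough UMIs there had intervals that held 1, among them Gpx3 at 1.12 (0.876 to 1.42). Gpx1 was at its highest among the endocrine classes in Sst cells, at 592 in Tg7 and 757 in Wild-type. In Ppy cells Gpx3 was at 2801 and 1873, a log2 ratio of 0.58 and thus just inside the limit, Prdx4 at 184 and 350, a ratio of 0.525 (0.315 to 0.869), and Prdx1 at 728 and 984, a ratio of 0.741 (0.566 to 0.971). Prdx2, Prdx5, Prdx6, Gpx1 and Gpx4 had intervals that held 1. Txnip had 27 Tg7 and 3 Wild-type UMIs in Ppy cells, under the minimum, and is named after its values were seen, with a ratio of 5.64 (1.73 to 29.0).

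Cells with several hormones differed in make-up between the libraries: the median insulin share was 15.7% of UMIs in Tg7 and 0.185% in Wild-type, and the median Gcg share 7.58% and 12.1%. Levels there therefore compare unlike mixtures. Txnip was at 525 and 169 CPM, a ratio of 3.11 (2.48 to 3.95), and Gpx1 at 244 and 466, a ratio of 0.523 (0.448 to 0.613). Prdx2 (0.678) and Prdx1 (0.710) were lower as well, and Prdx6 was at 1.27 (1.03 to 1.58). Gpx3 was nearly level, at 2315 and 2138, a ratio of 1.08 (1.01 to 1.16), while Prdx4 (1.35, 0.972 to 1.92), Prdx5 and Gpx4 had intervals that held 1.

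Cells without a hormone over the threshold fell into 7 clusters, of which 4 could be named from their markers: 23 macrophage-like, 22 endothelial-like, 14 fibroblast- or stellate-like and 6 erythroid-like cells. The leading genes of the erythroid-like cluster included globins but also the duct markers Spp1 and Krt19 and the acinar marker Cpa1. Its 2 Wild-type cells held 70709 non-hormone UMIs and its 4 Tg7 cells 13709, so that its name is uncertain. A cluster of 15 Tg7 and 3 Wild-type cells was led by Chga, Gast and Chgb, which are endocrine genes, and is left out of the next values. In the other 45 Tg7 and 42 Wild-type cells, Txnip was at 179 and 193 CPM, a ratio of 0.927 (0.620 to 1.37). With the Chga-led cluster included it was at 424 and 189, a ratio of 2.25 (1.70 to 2.98). In the 45 and 42 cells Gpx3 had the highest ratio, 31.3 (10.2 to 156), on 56 Tg7 and 3 Wild-type UMIs, of which the fibroblast- or stellate-like cells held 51 and 3. In the whole class, with the Chga-led cluster, Gpx3 was at 305 and 74.2 CPM, a ratio of 4.12 (2.75 to 6.34), and the other genes with enough UMIs but Txnip and Gpx4 (0.759) had intervals that held 1. Without that cluster, Prdx5 was at 260.1 and 158 CPM, a ratio of 1.65 with an interval above 1, Gpx1 at 848 and 562, a ratio of 1.51 (1.24 to 1.84), and Prdx1, Prdx2, Prdx4, Prdx6 and Gpx4 had intervals that held 1. The mix of types differed, with 16 macrophage-like and 6 endothelial-like cells in Tg7 and 7 and 16 in Wild-type.

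Within single cell types the counts were low. Txnip in endothelial-like cells was at 624 CPM (391 to 945) in 6 Tg7 cells and at 251 (171 to 356) in 16 Wild-type cells, on 22 and 31 UMIs, and these intervals do not overlap. In macrophage-like cells it was at 52.3 and 41.8, on 4 and 2 UMIs. Gpx3 had 51 UMIs in 8 Tg7 fibroblast- or stellate-like cells (848 CPM, 631 to 1114) and 3 in 6 Wild-type cells (31.4, 6.47 to 91.6). Gpx1 was high in macrophage-like cells of both libraries, at 1139 and 963.

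The Tg7 insulin cells were also ordered by how far they had lost Ins1, since the median Ins1 part of the insulin UMIs was 30.1% in Wild-type insulin cells. Tg7 insulin cells were divided into 199 cells with the lowest part (median 1.73%), 199 with a middle part (5.17%) and 198 with the highest part (10.8%). Their median depth was 25880, 36658 and 28850.5 UMIs. Prdx4 was at 158, 149 and 156 CPM in these, Prdx3 at 19.7, 20.1 and 18.7, Prdx5 at 246, 222 and 235 and Gpx1 at 215, 212 and 213, so that these genes were nearly level over the range. Gpx3 was at 691 (663 to 720), 630 (607 to 654) and 524 (502 to 548), and Txnip at 749 (720 to 779), 669 (646 to 694) and 612 (588 to 637). Both were highest in the cells with the lowest Ins1 part. Arrdc4 followed the same order at 64.2, 58.8 and 41.5. For each of Gpx3, Txnip and Prdx4 the lowest of the levels was above that of Wild-type insulin cells.

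Over the 12 profiles of 6 classes in 2 libraries, the genes whose levels followed a member most closely were sought among 7075 genes by Pearson's r of the log2 levels. The profiles share their libraries, so r is a description. Each class weighs the same, also where UMIs are few. Prdx3 had 3 Tg7 and 5 Wild-type UMIs in Sst cells, 2 and 5 in Ppy cells and 10 and 13 in cells without a hormone. Gpx3 was followed by Eef1a2 (0.98), Etv1 (0.96) and Ndst4 (0.95), and Txnip by Gfer (0.94), 3222401L13Rik (0.92) and Lrch2 (0.91). For Prdx4 these were Eci2 (0.88), Tpst1 (0.86) and Ergic3 (0.86), for Prdx3 Esd (0.90), Thap12 (0.88) and Rab7 (0.83), and for Prdx5 Coq5 (0.78), Puf60 (0.78) and Wbp11 (0.78).

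The partners of these enzymes were read from lists, whose counts stand beside 14.1% of all genes called higher and 13.1% called lower in insulin cells. Of 18 measured genes of the thioredoxin system, 0 were at least 1.5-fold higher and 3 lower, the glutaredoxins Glrx (0.462) and Glrx5 (0.589) and the sestrin Sesn2 (0.632). Thioredoxin itself (Txn1, 1.29), its reductase Txnrd1 (1.15) and Srxn1 (0.895), which repairs over-oxidised peroxiredoxins, lay within the limits. Of 11 genes of glutathione synthesis and reduction, 0 were higher and 4 lower, the cystine importer subunits Slc7a11 (0.505) and Slc3a2 (0.521), glutathione reductase Gsr (0.555) and the glutathione-degrading Chac1 (0.618). Gclc, which begins glutathione synthesis, had a ratio of 1.18. Gpx2, the other measured glutathione peroxidase, was at 23.2 and 53.2 CPM, a ratio of 0.436 (0.373 to 0.508).

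The superoxide dismutases Sod1 (1.137) and Sod2 (0.999), which form hydrogen peroxide, were near level, and catalase (Cat), which removes it, had 47 Tg7 and 18 Wild-type UMIs, a ratio of 1.89 (1.08 to 3.47), the 1 call among 4 measured genes. Of 11 glutathione transferases Gstm5 was higher (2.42) and Gstm2 lower (0.284). Of 17 measured genes of the NRF2 list 0 were higher (14.1% of all genes) and 5 lower (13.1%), among them Nqo1 with 1 Tg7 and 68 Wild-type UMIs, Hmox1 (0.321) and the ferritin subunit Ftl1 (0.434). This list shares genes with other lists, such as Gclc and Txnrd1 above and Ftl1 below, so their counts are not separate results. Of the genes that make selenoproteins, 1 of 9 was higher (Pstk, 1.61) and 1 lower (Sepsecs, 0.408), and of 12 other selenoproteins 0 were higher and 1 lower (Selenot, 0.516).

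Of 15 measured sources of NADPH, 3 were higher, Me3 (2.997), Idh1 (1.55) and Me2 (1.53), and 2 lower, Mthfd1 (0.408) and Idh2 (0.534), counts near the 14.1% and 13.1% of all genes. The mitochondrial transhydrogenase Nnt had 35 Tg7 and 30 Wild-type UMIs, a ratio of 0.847 (0.505 to 1.43). Of 15 glucose-responsive genes and α-arrestins other than Txnip, Arrdc4 alone was higher and 4 were lower, among them the glucose transporter Slc2a2 (0.0852) and G6pc2 (0.127). In Gcg cells, Srxn1 (0.497) was the 1 lower gene of 16 measured in the thioredoxin system, beside 9.64% of all genes. The plot of the lists sets the 10 genes beside them.

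**Figure D4:**
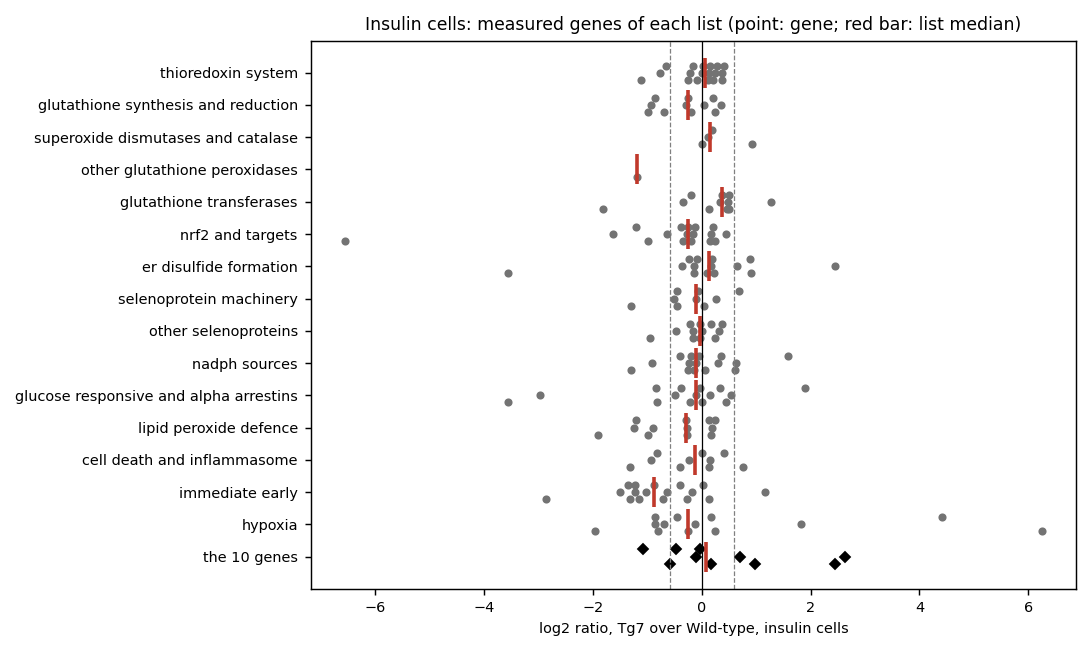
Log2 ratio of Tg7 over Wild-type in insulin cells (x axis) for each measured gene (grey points) of 15 gene lists and for the 10 genes (black diamonds), with list medians in red and dashed lines at 1.5-fold. The list medians are 0.07 for the thioredoxin system, -0.25 for glutathione synthesis and 0.37 for glutathione transferases, while Gpx3 lies at 2.64 and Prdx4 at 2.45.

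The calls were stable to most settings of the processing. Over 11 other settings the insulin-cell ratio ran from 5.55 to 10.9 for Gpx3, from 5.26 to 9.55 for Prdx4, from 1.89 to 3.44 for Txnip, from 1.57 to 2.85 for Prdx5 and from 0.453 to 0.824 for Prdx3. The highest value of each came from scaling to all UMIs, which moved Prdx3 inside the limit and left Gpx3, Prdx4, Txnip and Prdx5 above it.

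**Figure D5:**
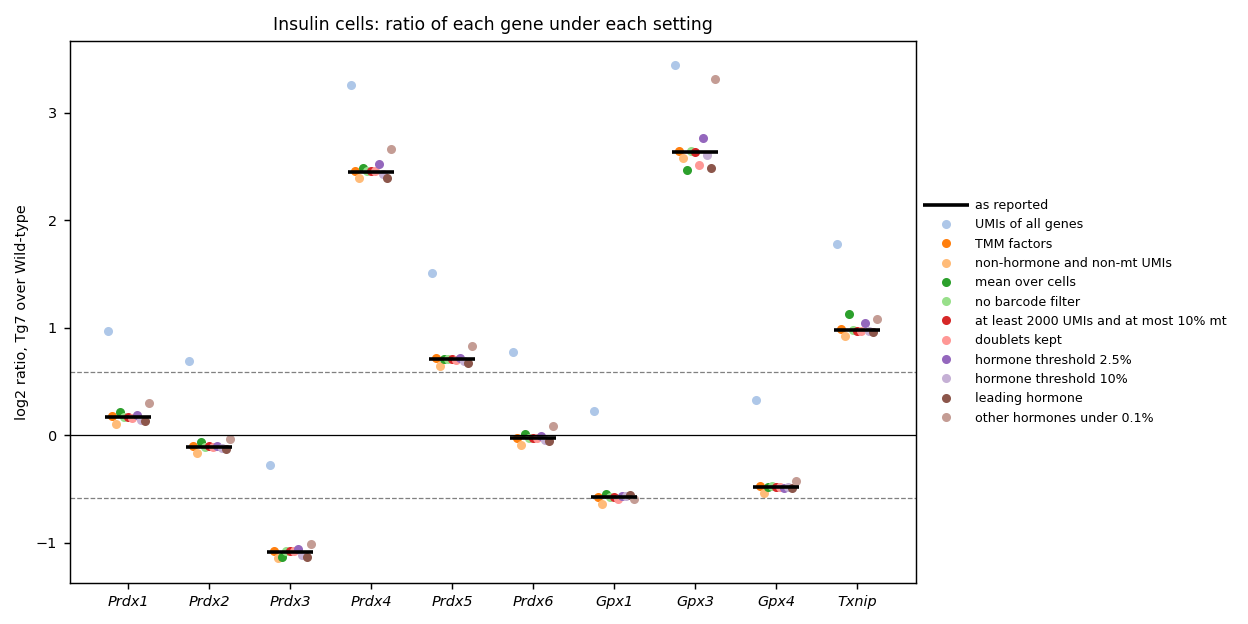
Log2 ratio of each gene in insulin cells (y axis) as reported (black bars) and under 11 other settings (coloured points), with dashed lines at 1.5-fold. Scaling to all UMIs lifts every gene by 0.80, and leaving out cells with other hormones lifts Gpx3 to a ratio of 9.92.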

How the data were processed

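For each of the 2 libraries the authors deposited 1 matrix of UMI counts, from Cell Ranger 3.0.2 (with STAR) on mm10 after bcl2fastq 2.17.1.14, per the submitters' processing notes. The version of the gene models was not found in these sources. From these counts, a barcode was kept from 1000 UMIs on if no more than 20% of them were mitochondrial, and Scrublet (scanpy 1.11.5, expected rate 0.8% per 1000 barcodes) removed 14 Tg7 and 6 Wild-type doublets. Total UMIs were 29931777 and 30829078. Cells of a class were summed and scaled to non-hormone UMIs, because hormones took unequal parts of the UMIs, and ratios of Tg7 over Wild-type carry conditional exact binomial intervals. Quotients of ratios carry log-scale Poisson intervals. A gene was measured with at least 50 UMIs over both libraries and called at 1.5-fold. Shares carry exact Clopper-Pearson intervals after thinning to 2000 non-hormone UMIs, and a share of 0 is given with that of 3 cells. With 1 library per group no p-value was computed. TMM factors came from edgeR 4.0.16.

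The 10 genes, the lists and the motifs were chosen with earlier results of these data known. Text names all 10 genes in insulin cells, those with enough UMIs in other classes, up to 3 genes at either end of each list, 11 genes fixed by name (Txn1, Txnrd1, Sod1, Sod2, Cat, Gclc, Srxn1, Arrdc4, Mlxipl, Ero1lb, Nnt) and the 3 most alike genes for Txnip, Gpx3, Prdx4, Prdx3 and Prdx5. Cells without a hormone were clustered without the genes under study and named only with at least 3 markers among their 10 leading genes. Erp29 and Chac1 were named after their values were seen. Classes were rebuilt from hormone shares and need not match the study's own. The steps were tested on simulated data. A gene of the glucose-responsive list that the naming rule covers is not reported here.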

Additional observations from a re-analysis of the deposited data

Results flagged for a closer look

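For 3 genes the Tg7 over Wild-type ratio lay above 1 in insulin cells and below 1 in another class, with both counting intervals off 1 and at least 50 UMIs in each. With 1 library per group the differences between classes were not tested over samples. Prdx1 had a ratio of 1.12 in insulin cells and of 0.890 in Gcg cells, 0.741 in Ppy cells and 0.710 in cells with several hormones. Prdx4 had a ratio of 5.48 in insulin cells and of 0.525 in Ppy cells, on 31 Tg7 and 37 Wild-type UMIs from 19 and 10 cells. Prdx5 had a ratio of 1.63 in insulin cells and of 0.514 in Sst cells, on 13 and 46 UMIs from 17 and 26 cells.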

How the results depend on the processing

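Of 59 recomputed counts 50 stayed within 1.5 times the reported value. Of 229 recomputed ratios of single genes 193 stayed within their counting interval, 36 moved and 0 called ratios changed direction. These totals include settings that could not change a value. Keeping doublets, for example, added no Gcg cells to the 173 and 144. In insulin cells, scaling to all UMIs gave 7 genes higher, beside 66.0% of all genes, and 0 lower, beside 2.58%. Scaling without mitochondrial UMIs, keeping doublets, and leaving out cells with other hormones over 0.1% each gave 2 genes lower, Prdx3 and Gpx1. Of all genes, 15.1%, 13.05% and 15.39% were lower under these settings in turn. A 2-fold limit gave 2 higher, beside 7.45% of all genes. In Gcg cells, leaving out cells with other hormones over 0.1% or over 1% gave 1 gene higher, Gpx3. Of all genes, 13.4% and 3.98% were higher under these limits, so that at 0.1% the count was near the share of all genes. A 2-fold limit gave 0 higher, for which the share of all genes was not computed. These limits on other hormones were chosen after seeing the data. TMM scaling, averaging over cells, both other barcode filters, both other hormone thresholds and classing by the leading hormone each gave 4 higher and 1 lower in insulin cells. Under these settings 13.9% to 14.3% of all genes were higher and 12.7% to 13.5% lower. The other UMI minimums could not change the counts of 4 and 1, since each gene had more UMIs. The share of cells with a UMI was higher in Tg7 insulin cells for 5 of 10 genes after thinning and for 4 without it. Prdx1 made the difference, and its thinned shares, 61.6% for Tg7 against 56.6% for Wild-type, have overlapping intervals. For these shares the matching counts over all genes are not given, so they have no background beside them. No paired analysis was possible because each group has 1 library. Precision is set by the counts, which are under 100 UMIs for most genes in Sst and Ppy cells, and the spread between mice cannot be read from these data.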

Other observations

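Lists next to peroxide defence were read in insulin cells as well, where 14.1% of all genes were called higher and 13.1% lower. Of 17 immediate early genes, which answer to stress and handling of cells as well as to stimulation, 1 was at least 1.5-fold higher in Tg7 (Egr2, 2.23) and 11 lower, among them the receptor Nr4a1 (0.137), Fosb (0.352) and Fos (0.391), with a list median log2 ratio of -0.88. In Gcg cells 1 of 15 was higher and 4 lower, beside 4.56% and 9.64% of all genes. Of 13 hypoxia genes 3 were higher (14.1% of all genes) and 5 lower (13.1%) in insulin cells: Epas1, an oxygen-regulated factor, had 418 Tg7 and 4 Wild-type UMIs, the oxygen sensor Egln3 176 and 6, and Pdk1, a kinase that holds back pyruvate oxidation, a ratio of 3.54, whereas Slc2a1 (0.256), Vegfa (0.551) and Ankrd37 (0.553) were lower.

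Of 12 measured genes of lipid peroxide defence and iron handling 0 were higher (14.1% of all genes) and 5 lower (13.1%), among them the transferrin receptor Tfrc (0.268), Gch1 (0.420), which makes a radical-trapping cofactor, and Ftl1 (0.434). Of 10 measured cell death and inflammasome genes, the survival gene Bcl2l1 was higher (1.70) and 3 were lower, the stress genes Ddit3 (0.403) and Trib3 (0.563) and the inflammasome adaptor Pycard (0.525). In Gcg cells 0 of 6 of these moved past 1.5-fold in either direction, where 4.56% of all genes were called higher and 9.64% lower. No cause of these differences was tested.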
